A study of Homo sapiens with 8 samples.

Results

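Chromatin accessibility of 2 oral squamous cell carcinoma lines was compared 24 hours after irradiation with 8 Gy. KOSC-2, which the labels call radiosensitive, and HSC-3, which they call radioresistant, are established cell lines grown in the same medium. The irradiated groups are KOSC-2 at 8 Gy (2 libraries) and HSC-3 at 8 Gy (2 libraries), 4 of the 8 libraries of the study. The unirradiated groups, KOSC-2 and HSC-3 at 0 Gy with 2 libraries each, were used to ask which differences were present without irradiation. All cells were frozen 24 hours after the 0 or 8 Gy dose. The question of the comparison is how open chromatin of a sensitive and a resistant line differs once both have been irradiated. Each class of sensitivity is represented by 1 line, so line and radiosensitivity cannot be told apart. Whether replicates are separate cultures is not stated in the labels, so every p-value measures only the spread between these libraries, which may be technical.

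ATAC-seq uses the Tn5 transposase, which inserts adapters where DNA is not covered by nucleosomes, so its peaks mark promoters, enhancers and other sites bound by proteins. Many promoters are open in most cell types, whereas distal enhancers differ more between cell types and between tumours. Ionising radiation breaks both DNA strands and sets off damage signalling, and chromatin near breaks is remodelled during repair. Regions are given by position on build hg19, because no hg19 genome or annotation was used here. For the same reason neither the genes at these regions nor marker genes of the squamous epithelium were analysed here, and no region sequence is printed.

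Peaks of the 4 irradiated lists on chromosomes 1 to 22 were merged wherever they shared at least 1 bp, which gave 66034 regions. A region was taken as line-specific where it was called in both irradiated lists of one line and in no irradiated list of the other. KOSC-2-specific regions numbered 8447 (12.8% of the regions tested) and HSC-3-specific regions 1118 (1.69%), a ratio of 7.56. Another 16164 regions (24.5%) were called in all 4 lists. Regions called in only 1 list numbered 13933 for KOSC-2 and 9529 for HSC-3, so the class just outside the rule was larger than the class inside it in both lines. KOSC-2-specific regions made up 23.9% of the 35334 regions found in both KOSC-2 lists, and HSC-3-specific regions 5.99% of the 18677 found in both HSC-3 lists. With 2 libraries a line, the smallest two-sided exact permutation p is 0.333, so no region can pass a test by itself.

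The lists differed in length along with the counts. On chromosomes 1 to 22 the irradiated KOSC-2 libraries had 50448 and 41407 peaks (replicates 1 and 2) and the HSC-3 libraries 21955 and 41874. The HSC-3 8 Gy library replicate 1 stood apart, with the fewest peaks and the lowest enrichment of these 4. Its summits in regions called in all 4 lists had a median pileup 19.5 times its genome-wide background, against 44.7 and 59.03 in KOSC-2 replicates 1 and 2 and 54.8 in HSC-3 replicate 2. Pileup here means the number of overlapping fragments at the summit. Without that library, 8847 KOSC-2-specific and 8687 HSC-3-specific regions were counted, a ratio of 1.02, with HSC-3 then read from 1 list. With all lists cut to the 21955 strongest peaks of the shortest one, the counts were 3031 and 2288, a ratio of 1.32. The part of list length in the unequal counts was not tested apart from these alternatives. The difference of 14013 peaks between the line means was within the spread between libraries (45928 ± 6393 and 31915 ± 14085, SD, n = 2 each, exact two-sided permutation p = 0.667). Whether more chromatin was open in KOSC-2 cannot be read from the 8447 and 1118 regions.

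Replicate 2 of each line offered a comparison of lists of nearly the same length (41407 and 41874 peaks) and background (24.3 and 20.7 reads per 10 kb). Background per 10 kb is the lowest value found in a library and serves here as depth. In that comparison, chosen after seeing the data, 13350 regions were called in KOSC-2 and not in HSC-3, and 13579 in HSC-3 and not in KOSC-2. They were 24.4% and 24.8% of 54738 regions. With 1 list per line the 2 counts differ by about the difference in list length, so their near equality is fixed by the lists and shows nothing of the lines.

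The median peak widths of the libraries did not overlap between the lines. The median peak was 474 and 462 bp wide in the irradiated KOSC-2 libraries and 433 and 438.5 bp in the HSC-3 libraries (468 ± 8.49 bp and 435.75 ± 3.89 bp, SD, n = 2 each). The difference of 32.25 bp had the smallest exact permutation p that 2 against 2 allows (0.333). The sequence covered was 29.3 and 23.05 Mb in KOSC-2 and 11.1 and 21.8 Mb in HSC-3, also without overlap and with the same exact permutation p of 0.333.

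Line-specific regions were weak and narrow compared with regions shared by the lines. Strength was read as the percentile of a peak's −log10 p within its own list, averaged over the 2 lists of the line. The median percentile was 35.8 for KOSC-2-specific regions (quartiles 23.3 and 49.9) and 40.9 for HSC-3-specific regions (quartiles 27.3 and 55.3). For regions called in all 4 lists the median was 78.7 in the KOSC-2 lists and 67.6 in the HSC-3 lists. The median pileup at KOSC-2-specific summits was 22 and 17 reads in replicates 1 and 2, and that at HSC-3-specific summits 17 and 19 reads. The smallest pileups called in these 4 libraries were 5 to 8 reads. The lower quartiles at line-specific summits were 17 and 13 reads in KOSC-2 and 14 and 14 reads in HSC-3. Their median widths were 468 bp in KOSC-2 and 476.5 bp in HSC-3, against 856 bp for regions in all 4 lists. These are widths of merged regions, and merging peaks of more lists can widen a region by construction, so they are not like for like. These values describe the calls that defined the classes and were not tested.

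The share of regions that were line-specific fell with strength in both lines. Among the weakest decile of regions found in both KOSC-2 lists, 58.3% were in no irradiated HSC-3 list, and among the strongest decile 0.538%, or 19 of 3534 regions. In HSC-3 the share fell from 18.5% in the weakest decile to 0.428% in the strongest, or 8 of 1868 regions. Of the strongest decile in KOSC-2, 96.5% were called in both HSC-3 lists, and of the strongest decile in HSC-3, 98.3% were called in both KOSC-2 lists. The regions ranked strongest by −log10 p in either irradiated line were therefore nearly all called in the other. These shares come from the same calls that defined the classes and were not tested.

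**Figure D1:**
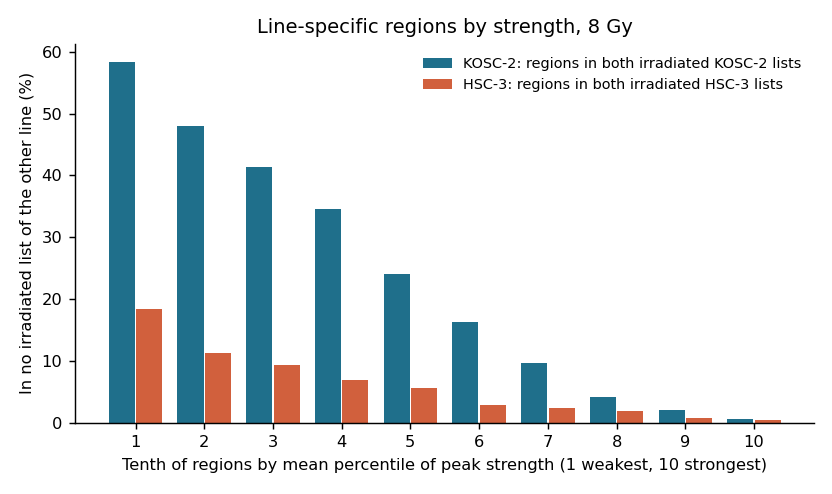
Share of regions called in both irradiated lists of a line that were in no irradiated list of the other line (vertical axis, %), by decile of peak strength within the lists of the line (horizontal axis, 1 weakest to 10 strongest), for KOSC-2 and HSC-3. Bars fall from 58.3% to 0.538% in KOSC-2 and from 18.5% to 0.428% in HSC-3.

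The unirradiated libraries were not used to choose these regions, so they show how far the same difference held in other libraries of the lines. KOSC-2-specific regions were called in 39.0% and 74.5% of cases in the KOSC-2 0 Gy libraries (replicates 1 and 2) and in 27.4% and 6.43% in the HSC-3 0 Gy libraries. The 2 KOSC-2 values lay above both HSC-3 values. The means were 56.7% ± 25.1 and 16.9% ± 14.9 (SD, n = 2 each), a difference of 39.8 percentage points with the smallest exact permutation p that the design allows (0.333). HSC-3-specific regions were called in 78.8% and 46.0% of cases in the HSC-3 0 Gy libraries and in 36.4% and 13.8% in the KOSC-2 0 Gy libraries. The HSC-3 values again lay above both values of the other line (mean difference, KOSC-2 minus HSC-3, of -37.3 percentage points, exact permutation p = 0.333). When HSC-3-specific regions were chosen without the HSC-3 8 Gy replicate 2 list, the difference was -13.0 points and the libraries of the lines overlapped (exact permutation p = 0.667). Chosen without replicate 1 it was -15.6 points, with no overlap (exact permutation p = 0.333). As background, the same 4 libraries called 48.8% and 59.7% (KOSC-2) and 54.4% and 31.7% (HSC-3) of all regions tested. Regions called in all 4 irradiated lists were found in 80.8% to 97.9% of cases in every 0 Gy library.

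The KOSC-2 0 Gy library replicate 1 stood apart in this comparison. It called KOSC-2-specific and HSC-3-specific regions about equally often (39.0% and 36.4%, a ratio of 1.07). In the other 0 Gy libraries this ratio was 5.41 (KOSC-2 replicate 2), 0.348 (HSC-3 replicate 1) and 0.140 (HSC-3 replicate 2). The library had the highest background of the 8 (64.8 reads per 10 kb), that is, the greatest depth by the measure used here. Its median summit in the regions of all 4 irradiated lists was 23.6 times that background, against 34.7 to 49.9 in the other 0 Gy libraries. Of the 478 HSC-3-specific regions that a KOSC-2 0 Gy library called, 324 (67.8%) were called by this library alone and 71 by replicate 2 alone. On chromosome 5 its peak height lay between those of the other KOSC-2 libraries and the HSC-3 libraries, as described with the chromosomes. The part of depth, of enrichment or of a mixture of the lines in these calls was not tested. A mixture would change what its 39.0% and 36.4% stand for, as well as the counts at both doses. Without this library, KOSC-2-specific regions were called in 74.5% of cases in KOSC-2 at 0 Gy, against 27.4% and 6.43% in HSC-3, and HSC-3-specific regions in 13.8%, against 78.8% and 46.0%. The HSC-3 0 Gy library replicate 2 had the fewest peaks at 0 Gy (22860, against 37463 to 44364 in the other 3) and the lowest share of all regions called (31.7%).

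**Figure D2:**
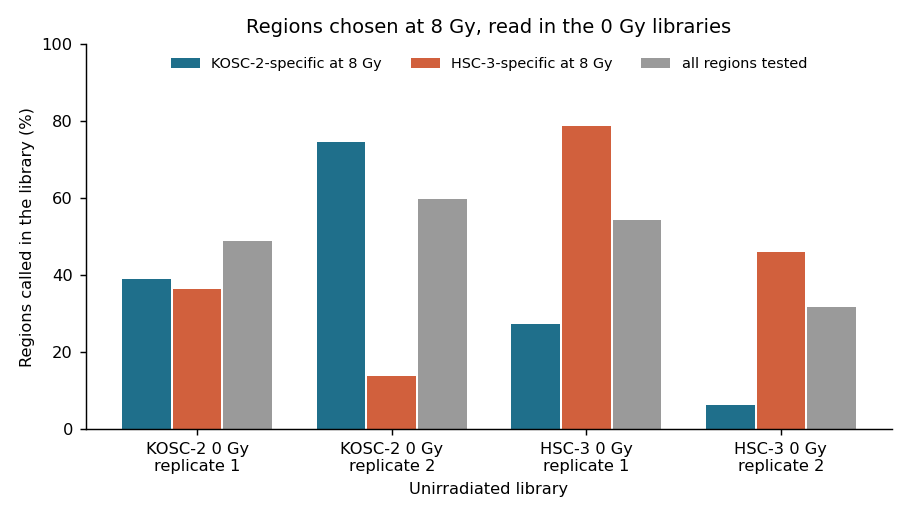
Share of regions called (vertical axis, %) in each of the 4 unirradiated libraries (horizontal axis), for regions that were KOSC-2-specific or HSC-3-specific at 8 Gy and for all regions tested. The KOSC-2 0 Gy library replicate 1 called both classes about equally (39.0% and 36.4%), while each of the other 3 called one class more often.

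Strong line-specific regions were called more often at 0 Gy than weak ones, which also held for other regions. Of the regions in both KOSC-2 lists that were not line-specific, 24.5% of the weakest decile were in no KOSC-2 0 Gy list. Of the strongest decile it was 0%. The HSC-3 values were 12.2% and 0%. In the strongest quartile of KOSC-2-specific regions, 96.4% were called in the KOSC-2 0 Gy library replicate 2, 63.4% in KOSC-2 replicate 1, 35.9% in HSC-3 replicate 1 and 8.76% in HSC-3 replicate 2. In the weakest quartile these shares were 51.7%, 21.7%, 20.2% and 4.31%. In the strongest quartile of HSC-3-specific regions, 95.4% and 76.8% were called in the HSC-3 0 Gy libraries replicates 1 and 2, and 49.6% and 17.9% in the KOSC-2 ones. In the weakest quartile the shares were 55.0% and 22.5% in HSC-3, and 25.4% and 13.6% in KOSC-2. Where a 0 Gy library of the other line called such regions, its peaks were mostly weak, with median percentiles of 26.2 and 24.4 for KOSC-2-specific regions in HSC-3 replicates 1 and 2, and 20.04 for HSC-3-specific regions in KOSC-2 replicate 2. In KOSC-2 replicate 1 the median for HSC-3-specific regions was 36.0, close to its median of 34.3 for KOSC-2-specific regions.

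By the same rule at 0 Gy, 1656 of the 8447 KOSC-2-specific regions (19.6%) were also KOSC-2-specific, that is, called in both KOSC-2 0 Gy lists and in no HSC-3 0 Gy list. The background share over all regions tested was 5.25%. Another 2756 (32.6%) were called in 1 of the 2 KOSC-2 0 Gy lists and in no HSC-3 0 Gy list. A further 2532 (30.0%) were called in at least 1 HSC-3 0 Gy list, and so were not specific to KOSC-2 over all libraries. Of these, 1989 were called in the HSC-3 replicate 1 list alone. As background, the HSC-3 0 Gy libraries called 54.4% and 31.7% of all regions tested (replicates 1 and 2). The 30.0%, which counts a call in either list, lay below the share of replicate 1 by itself. These regions were chosen for absence from the irradiated HSC-3 lists, so a low share is partly set by the choice. The remaining 1503 (17.8%) were in no 0 Gy list.

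In HSC-3, 233 of the 1118 line-specific regions (20.8%) were also HSC-3-specific at 0 Gy, against a background of 1.67%. Another 265 (23.7%) were called in 1 HSC-3 0 Gy list and in no KOSC-2 0 Gy list. A KOSC-2 0 Gy list called 478 (42.8%), and 142 (12.7%) were in no 0 Gy list. The KOSC-2 0 Gy libraries called 48.8% and 59.7% of all regions tested (replicates 1 and 2). The 42.8%, which counts a call in either list, lay below the share of each. These regions were chosen for absence from the irradiated KOSC-2 lists, so a low share is again partly set by the choice. Leaving out the KOSC-2 0 Gy library replicate 1 raised the regions specific at both doses to 4185 (49.5%) in KOSC-2 and 399 (35.7%) in HSC-3, and lowered the HSC-3-specific regions seen in KOSC-2 at 0 Gy to 154 (13.8%). With a library left out, its line has 1 list fewer in which its own regions must be found and those of the other line absent.

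Seen from the unirradiated lists, merged separately into 62842 regions, 3792 regions were KOSC-2-specific (6.03%) and 1268 HSC-3-specific (2.02%). Of these, 1680 (44.3%) and 235 (18.5%) were also line-specific at 8 Gy. A background over all unirradiated regions is not given here for these shares.

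**Figure D3:**
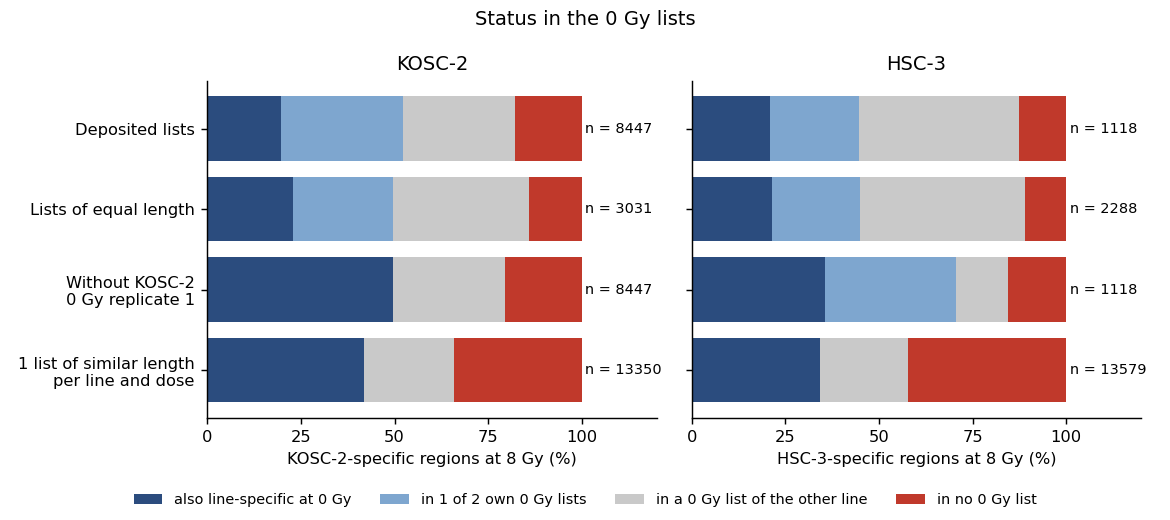
Status in the 0 Gy lists of the regions that were KOSC-2-specific (left) or HSC-3-specific (right) at 8 Gy, as a share of each class (horizontal axis, %), with the number of regions beside each bar, for the deposited lists and 3 alternatives. The share in no 0 Gy list was 17.8% and 12.7% with the deposited lists, and 14.1% and 11.0% with lists of equal length.

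Regions seen only 24 hours after 8 Gy were less frequent among line-specific regions than among all regions in the deposited lists. The KOSC-2 share of 17.8% and the HSC-3 share of 12.7% stood against 25.1% of all regions tested that were in no 0 Gy list. That background was carried by regions called in a single irradiated list, of which 58.5% (1 KOSC-2 list) and 56.6% (1 HSC-3 list) were in no 0 Gy list. Of the regions called in all 4 irradiated lists, 0.192% were in no 0 Gy list. For regions in both lists of a line and 1 of the other, the share was 3.20% (both KOSC-2 lists) and 3.44% (both HSC-3 lists). The line-specific shares thus lay above those of other regions called in both lists of their line, and below those of single-list regions. The order against all regions turned in several alternatives that read a line from a single list, though not in all of them. With 1 list of similar length per line and dose, the shares were 34.1% (KOSC-2) and 42.4% (HSC-3), against 20.3% of all regions. Without the KOSC-2 0 Gy library replicate 2 the KOSC-2 share was 47.7% against 35.4%, and with HSC-3 0 Gy replicate 1 left out the HSC-3 share was 33.5% against 31.1%. Leaving out an irradiated KOSC-2 library (replicate 1 or 2) gave KOSC-2 shares of 31.3% and 39.3%, against 19.4% and 22.8%. Leaving out an irradiated HSC-3 library gave HSC-3 shares of 46.4% and 52.8%, against 23.5% and 21.7%. With lists of equal length the shares stayed below the background (14.1% and 11.0%, against 20.4%). Without the KOSC-2 0 Gy library replicate 1 the KOSC-2 share stayed below (20.5% against 27.8%), as did the HSC-3 share with HSC-3 0 Gy replicate 2 left out (15.6% against 25.9%). Whether the share lay above or below the background thus depended on which lists were used. Weak line-specific regions were absent from the own 0 Gy lists more often than other weak regions of the same line. By definition the other regions also had a call in an irradiated list of the other line, so the sets are not like for like. In the weakest decile of regions of both KOSC-2 lists, 42.05% of the KOSC-2-specific and 24.5% of the other regions were in no KOSC-2 0 Gy list. In the weakest decile of HSC-3 the values were 35.7% and 12.2%. Both shares fell with strength. From decile 7 upward in KOSC-2 and decile 6 upward in HSC-3, every line-specific region was called in at least 1 own 0 Gy list.

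The opposite pattern was counted in the same way. Regions that were KOSC-2-specific at 0 Gy and in no 8 Gy list numbered 282 (7.44% of 3792), and the HSC-3 ones 164 (12.9% of 1268). The share of all unirradiated regions in no 8 Gy list is not given here, so whether these shares are low or high cannot be read from them. In HSC-3, regions only at 8 Gy and only at 0 Gy numbered 142 and 164. The count of 142 was 375 with HSC-3 0 Gy replicate 1 left out, 251 with lists of equal length, and 4029 or 1656 with the irradiated HSC-3 replicate 1 or 2 left out, so its nearness to 164 was not stable. In KOSC-2 those only at 8 Gy were more numerous (1503 and 282), and its 8 Gy lists were longer (50448 and 41407 peaks) than its 0 Gy lists (37463 and 44364) in total. Without the KOSC-2 0 Gy library replicate 2 the count only at 8 Gy was 4032, and with lists of equal length it was 427.

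The 1503 KOSC-2 regions seen only after 8 Gy had a median percentile of 23.5 and a median width of 412 bp. Those specific at both doses had 47.1 and 541.5 bp. In HSC-3 the corresponding medians were 23.9 and 418.5 bp for regions seen only after 8 Gy, and 48.7 and 521 bp for regions specific at both doses. The highest mean percentile of any region seen only after 8 Gy was 67.1 in KOSC-2 and 62.9 in HSC-3. Of the strongest quartile of each class, 47 KOSC-2 regions (2.23%) and 4 HSC-3 regions (1.43%) were seen only after 8 Gy.

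The KOSC-2 region of this kind with the highest percentile was at chromosome 5, 126590518 to 126591012. Its summit pileups were 39 and 20 reads in replicates 1 and 2, at an authors' fold enrichment of 12.1 and 10.4. Next came chromosome 13, 63758785 to 63759256, with 39 and 15 reads, and chromosome 11, 18820409 to 18820996, with 35 and 22 reads. The fourth was chromosome 11, 92002048 to 92002622, with 32 and 27 reads, which lies inside the longest run of KOSC-2-specific regions described further on. The fifth was chromosome 15, 30226421 to 30226854, with 34 and 28 reads. All 5 had more reads in replicate 1, the library with the greater depth of that pair (background of 41.0 against 24.3 reads per 10 kb). The medians over all KOSC-2-specific regions went the same way (22 and 17 reads), as did those over regions in all 4 lists (55 and 43 reads).

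In HSC-3 the first region seen only after 8 Gy was chromosome 5, 96216059 to 96216453, with pileups of 27 and 25 reads in replicates 1 and 2. It was followed by chromosome 13, 100227284 to 100228059, with 22 and 23 reads, and chromosome 11, 112348602 to 112349100, with 17 and 24 reads. The last named by the rule were chromosome 3, 133663571 to 133663942, with 30 and 32 reads, and chromosome 9, 17614855 to 17615334, with 15 and 19 reads. The authors' fold enrichment of these 5 ran from 4.65 to 8.97 over both libraries. The 5 KOSC-2 regions had at most 39 reads, and the 10 strongest regions of the KOSC-2 class at least 55 in both irradiated KOSC-2 libraries. In HSC-3 the ranges met, with at most 32 reads in the 5 regions and at least 31 in the 10 strongest of the class. The 10 were picked as the strongest of their class, so higher reads in them follow from that choice and were not tested.

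Among the strongest line-specific regions, presence at 0 Gy was the rule. Of the 10 KOSC-2-specific regions with the highest mean percentile, 9 were also KOSC-2-specific at 0 Gy, and of the 10 HSC-3-specific ones 6 were also HSC-3-specific at 0 Gy. Each of the 20 also had a peak in both 0 Gy libraries of its own line. Strong regions that were not line-specific were likewise nearly all called in at least 1 own 0 Gy list, as given above. The other 5 were called in 1 unirradiated library of the other line, which was the KOSC-2 0 Gy library replicate 1 in 3 cases.

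The strongest KOSC-2-specific region, chromosome 9, 6931503 to 6932418, had pileups of 106 and 116 reads in the irradiated KOSC-2 libraries (authors' fold 13.75 and 16.4). At 0 Gy it had 77 and 119 reads in KOSC-2 and 22 reads in HSC-3 replicate 1, where it ranked at percentile 65.4. It was therefore KOSC-2-specific after 8 Gy but not at 0 Gy. The second, chromosome 11, 100646788 to 100648259, was 1472 bp wide and had the highest pileups of the class. They were 137 and 133 reads at 8 Gy and 66 and 127 reads at 0 Gy, with no call in any HSC-3 library. Its local background at 8 Gy (13.4 and 12.8 reads) was also the highest of the 10 strongest regions, and its authors' fold (9.60 and 9.68) the lowest. The third, chromosome 12, 33948344 to 33949017, had 93 and 78 reads at 8 Gy and 47 and 73 at 0 Gy.

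The next KOSC-2-specific regions were chromosome 2, 78768492 to 78769462 (83 and 81 reads at 8 Gy, 59 and 97 at 0 Gy), and chromosome 19, 1082012 to 1082868 (98 and 94 reads at 8 Gy, 55 and 83 at 0 Gy). Chromosome 9, 33328923 to 33329671, had 86 and 83 reads at 8 Gy and 32 and 69 at 0 Gy. In each of these regions the KOSC-2 0 Gy library replicate 1 gave fewer reads than replicate 2. Its background, used here as depth, was higher (64.8 against 31.4 reads per 10 kb). The seventh was chromosome 11, 50257248 to 50258131, with 70 and 78 reads at 8 Gy and 38 and 80 at 0 Gy. The eighth was chromosome 2, 81885288 to 81886063 (79 and 58 reads at 8 Gy, 38 and 68 at 0 Gy). The last were chromosome 8, 51101210 to 51101780 (65 and 65 reads at 8 Gy), and chromosome 3, 4909839 to 4910495 (88 and 55). The mean percentiles of these 4 ran from 94.3 to 95.0, and none was called in any HSC-3 library.

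The strongest HSC-3-specific region was chromosome 14, 78669180 to 78670159. Its pileups were 76 and 107 reads at 8 Gy and 96 and 59 reads at 0 Gy, at percentiles of 99.0 to 99.6 in all 4 HSC-3 lists, and no KOSC-2 library called it. The second, chromosome 5, 89854186 to 89855002, had 45 and 76 reads at 8 Gy and 87 and 41 at 0 Gy. The KOSC-2 0 Gy library replicate 1 called it with 17 reads, at percentile 32.7. The third, chromosome 10, 131265081 to 131265830, had 54 and 104 reads at 8 Gy, and the same KOSC-2 library called it with 22 reads, at percentile 16.5.

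Chromosome 3, 131080344 to 131081124, with 39 and 70 reads at 8 Gy, was the other HSC-3-specific region called in that library, with 26 reads at percentile 53.3. Chromosome 19 held a pair of regions about 100 kb apart, at 31644745 to 31645431 (48 and 59 reads at 8 Gy) and 31745085 to 31745826 (50 and 66 reads). The first of the pair was called in the KOSC-2 0 Gy library replicate 2 with 9 reads, at percentile 4.46. The remaining regions were chromosome 13, 112686374 to 112687216 (50 and 69 reads at 8 Gy), chromosome 4, 75579207 to 75579917 (40 and 57), chromosome 18, 7038240 to 7038943 (42 and 56), and chromosome 10, 37668885 to 37669374 (31 and 37). These 4 were not called in any KOSC-2 library.

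**Figure D4:**
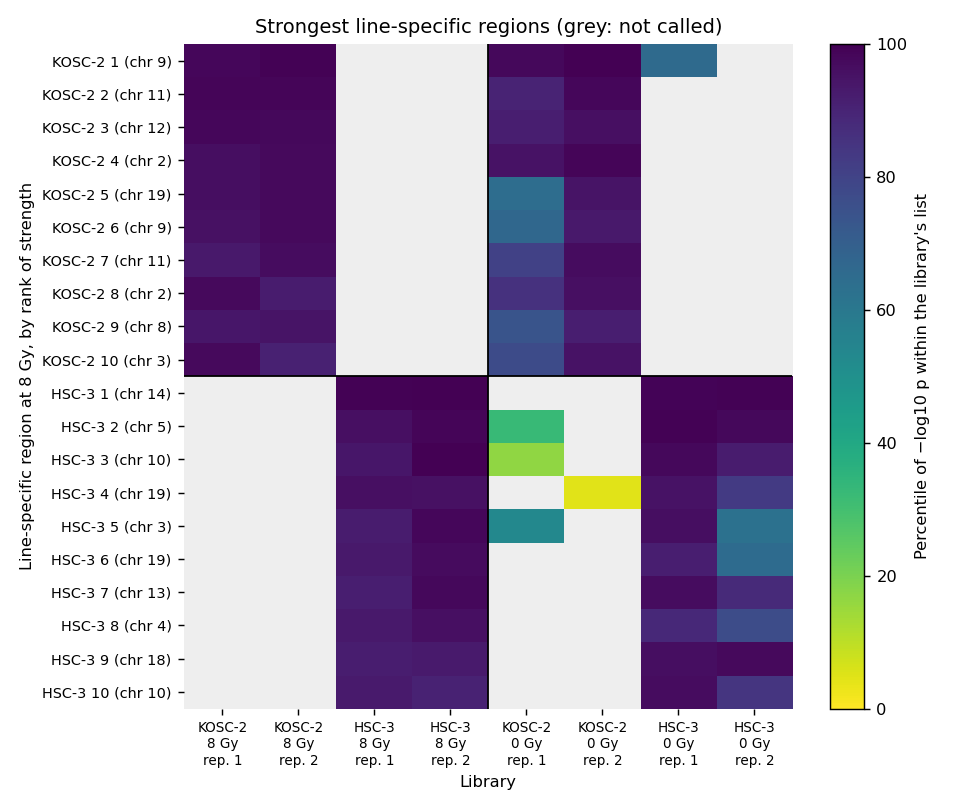
Percentile of −log10 p (colour) of the 10 strongest KOSC-2-specific and 10 strongest HSC-3-specific regions at 8 Gy (rows, with chromosome) in each of the 8 libraries (columns), grey where a library made no call. The right side shows the 0 Gy libraries, which did not enter the choice: each of the 20 has a call in both own 0 Gy libraries, and 5 in 1 library of the other line.

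Line-specific regions lay somewhat farther from the nearest shared region than shared regions lay from each other. The median distance between midpoints to the nearest region called in all 4 lists was 42.4 kb for KOSC-2-specific regions (quartiles 15.3 and 119 kb), 43.9 kb for HSC-3-specific regions (16.5 and 118 kb), and 32.8 kb between regions in all 4 lists (14.4 and 71.4 kb). The nearest irradiated peak of the other line was at a median of 14.2 kb in both classes. It was within 1 kb for 672 KOSC-2-specific regions (7.96%) and 106 HSC-3-specific regions (9.48%), so in most cases the other line did not have a slightly displaced peak. It was over 100 kb away for 1021 (12.1%) and 76 (6.80%).

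Some line-specific regions followed each other without a break. Regions called in both irradiated lists of 1 line or more were put in order of position. In that series 4189 KOSC-2-specific regions (49.6%) stood next to another one, in 1533 runs, and 874 (10.3%) in 117 runs of 5 or more. In HSC-3, 207 regions (18.5%) stood in 88 runs, and 2 runs held 5 or more. The series held 8447 KOSC-2-specific and 1118 HSC-3-specific regions, beside 16164, 10723 and 1395 that were not line-specific. Neighbours of the same class are thus partly set by number, and the share that number alone would give was not computed. The more frequent class has longer runs by its number alone, so the lengths were not compared between the lines.

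The longest KOSC-2-specific run held 29 regions over 2037 kb of chromosome 11, 90077607 to 92114566. The irradiated KOSC-2 libraries had 41 and 35 peaks there and both irradiated HSC-3 libraries 0. At 0 Gy the KOSC-2 libraries had 13 and 31 peaks (replicates 1 and 2) and both HSC-3 libraries again 0. Of its 29 regions, 8 were also KOSC-2-specific at 0 Gy, 14 were called in 1 KOSC-2 0 Gy list, and 7 were seen only after 8 Gy. No HSC-3 library of either dose thus had a peak in this stretch.

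The second run, of 22 regions over 682 kb, was also on chromosome 11, at 100238569 to 100920390, and holds the second strongest KOSC-2-specific region. KOSC-2 libraries had 32 and 24 peaks there at 8 Gy and 18 and 25 at 0 Gy, and all 4 HSC-3 libraries 0. Of its regions, 12 were specific at both doses and 1 was seen only after 8 Gy. The third, of 20 regions over 5754 kb, was on chromosome 4, 132922668 to 138676683. KOSC-2 had 29 and 25 peaks at 8 Gy and 8 and 23 at 0 Gy, and HSC-3 1 and 1 at 8 Gy and 2 and 1 at 0 Gy.

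The longest HSC-3-specific run held 8 regions over 356 kb of chromosome 18, 6682787 to 7038943. The HSC-3 libraries had 9 and 10 peaks there at 8 Gy and 11 and 4 at 0 Gy, and all 4 KOSC-2 libraries 0. The second, of 5 regions, was on chromosome 2, 1679394 to 1748803, with 5 and 7 HSC-3 peaks at 8 Gy and 9 and 7 at 0 Gy. Here the KOSC-2 0 Gy library replicate 1 had 6 peaks, and the other 3 KOSC-2 libraries 0. Next came 6 runs of 4 regions each. The shortest of these in span was nearby on chromosome 2, at 2743103 to 2850815, with 4 and 5 peaks in irradiated HSC-3 and 1 in the same KOSC-2 0 Gy library. The run of chromosome 18 was thus free of calls in the library that called HSC-3-specific regions most often among the KOSC-2 libraries. With lists of equal length the longest runs were others, of 11 regions in KOSC-2 (chromosome 6, 41908621 to 42307049) and 15 in HSC-3 (chromosome 2, 1679394 to 3172690, which contains both chromosome 2 runs). With HSC-3 8 Gy replicate 1 left out the longest HSC-3-specific run held 17 regions (chromosome 10, 130443790 to 131843649), and with replicate 2 left out 13 (chromosome 18, 5542982 to 7231518). Peaks above the 50th percentile of their list gave 14 regions in KOSC-2, on chromosome 6, and 10 in HSC-3, on chromosome 2.

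The lines also differed in which chromosomes carried these regions. KOSC-2-specific regions were most frequent on chromosomes 18 (19.4% of the regions tested there), 19 (18.2%) and 16 (17.5%), and least frequent on chromosomes 10 (7.65%), 5 (7.69%) and 8 (11.0%). HSC-3-specific regions were most frequent on chromosomes 5 (3.30%), 13 (2.67%) and 8 (2.36%), and least frequent on chromosomes 21 (0.457%), 19 (0.689%) and 16 (0.752%). On chromosome 5 the 2 classes numbered 305 and 131 regions, against 397 and 15 on chromosome 19.

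The shares were also taken at 0 Gy, in libraries the rule did not use. KOSC-2-specific regions at 0 Gy made up 9.82% of regions on chromosome 19, 8.93% on chromosome 18 and 7.85% on chromosome 16, with chromosomes 21 (8.31%) and 13 (8.06%) above chromosome 16, against 3.82% on chromosome 10 and 3.77% on chromosome 5. HSC-3-specific regions at 0 Gy were most frequent on chromosome 4 (3.85%, against 2.29% at 8 Gy), followed by chromosome 5 (2.98%), and least frequent on chromosome 19 (0.527%). Over the 22 chromosomes the shares at 8 and 0 Gy had a Pearson r of 0.870 and a Spearman rho of 0.825 for KOSC-2, and 0.753 and 0.788 for HSC-3. Chromosomes share their libraries and are not replicates, so these are descriptions. Chromosome 21 departed in HSC-3, with 3 line-specific regions at 8 Gy and 13 at 0 Gy.

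**Figure D5:**
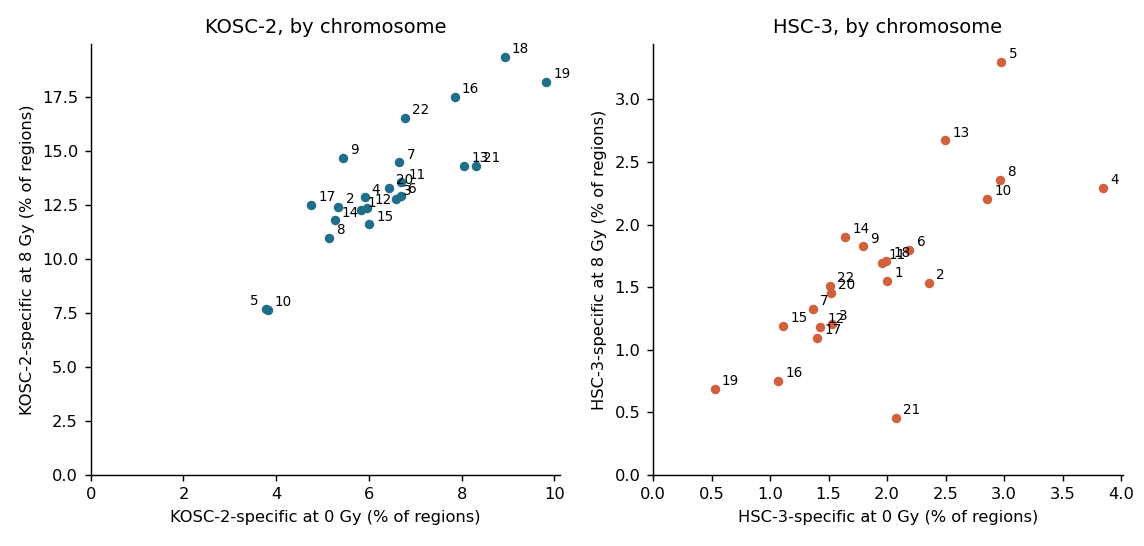
Share of regions that were line-specific at 8 Gy (vertical axis, %) against the share at 0 Gy (horizontal axis, %) for chromosomes 1 to 22 (numbered points), for KOSC-2 (left) and HSC-3 (right). Chromosomes 18, 19 and 16 lie highest and 5 and 10 lowest in KOSC-2, and chromosome 5 lies highest and 21 lowest at 8 Gy in HSC-3.

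The height of shared peaks moved with these shares on several chromosomes. For each library, the median summit pileup of regions called in all 4 irradiated lists was taken per chromosome and divided by its median over all chromosomes. On chromosome 5 this relative pileup was 0.818 and 0.791 in irradiated KOSC-2 and 1.16 and 1.18 in irradiated HSC-3. On chromosome 18 it was 1 and 0.977 in KOSC-2 and 0.800 and 0.853 in HSC-3, and on chromosome 16 it was 1.13 and 1.16 in KOSC-2 and 0.960 and 0.941 in HSC-3. On chromosome 21, with the lowest HSC-3 share, it was 0.973 and 0.942 in KOSC-2 and 0.800 and 0.765 in HSC-3. Chromosome 19, with many KOSC-2-specific regions, had overlapping values (1.02 and 1.02 in KOSC-2, 1.12 and 0.971 in HSC-3).

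The same regions were read in the 0 Gy libraries. The relative pileup on chromosome 5 was 0.957 and 0.787 in KOSC-2 replicates 1 and 2, and 1.11 and 1.14 in HSC-3. KOSC-2 replicate 1 thus lay between the other KOSC-2 libraries and the HSC-3 libraries on this chromosome. Over the 22 chromosomes, the log2 difference between the lines in relative pileup at 0 Gy had a Pearson r of 0.676 (Spearman rho 0.516) with the share of KOSC-2-specific regions at 8 Gy, and of -0.712 (rho -0.689) with the share of HSC-3-specific regions. The part of relative pileup in the shares of line-specific regions was not tested.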

How the data were processed

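Each of the 8 libraries had its own deposited peak list without a header, in the 10-column narrowPeak layout, so peaks are taken as called per sample. Build hg19, MACS2 2.2.6 and Bowtie2 2.3.4.2 are named in the submitters' processing notes without roles, as are FastQC 0.11.7, deepTools and SAMtools 1.9. Whether duplicates were removed or reads shifted for Tn5 is not given in the sources used. For each peak the authors deposited a score (10 times the −log10 q without decimals), a ratio (fold enrichment over the background of the same library), −log10 p and −log10 q values and the summit position. These are relative to 1 library and were used to describe or rank peaks within a list.

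Pileup and background at each summit were recovered from fold and p, taking fold as (pileup + 1) / (background + 1) and p as a Poisson tail. Pileups of 2 to 400 were searched, and a whole pileup matched the deposited −log10 p within 0.0001 for 99.99% or more of each list. Each library's lowest background, scaled from 300 bp to 10 kb, served as depth. It was 41.0 and 24.3 reads per 10 kb in irradiated KOSC-2 and 42.6 and 20.7 in irradiated HSC-3. Read totals were not used here.

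Groups and replicate numbers came from the titles. The members, rule and alternatives were chosen with earlier results of these data known. Regions named are, per line, the 10 strongest by mean percentile, the 5 strongest specific at both doses, the 5 strongest in no 0 Gy list, the 3 longest runs, and the 3 chromosomes with the highest and lowest shares. Gene lists, markers and motifs planned for the case of an hg19 annotation or genome were not analysed here. Tests between lines were exact two-sided permutations over libraries, with 6 assignments. Simulated lists with classes planted in them were used to check the merging and the class calls. Software was scipy 1.17.1, numpy 2.4.6, matplotlib 3.10.9, pandas 2.3.3 and Python 3.11.15.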

Additional observations from a re-analysis of the deposited data

Results flagged for a closer look

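Chromosome X lay outside the rule, which covers chromosomes 1 to 22. Among 1716 regions of the irradiated lists there, 163 (9.50%) were KOSC-2-specific and 33 (1.92%) HSC-3-specific. By the same rule at 0 Gy, 67 of 1548 regions (4.33%) were KOSC-2-specific and 42 (2.71%) HSC-3-specific. The KOSC-2 count drew attention because it was higher at 8 Gy than in the unirradiated libraries. The KOSC-2 counts on chromosomes 1 to 22 were 8447 and 3792, and the shares 12.8% and 6.03%.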

How the results depend on the processing

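Line-specific regions were counted again on other versions of the lists. Cut to equal length, the lists gave 34927 regions, 3031 KOSC-2-specific and 2288 HSC-3-specific (ratio 1.32), of which 694 and 492 were also line-specific at 0 Gy and 427 and 251 in no 0 Gy list. With peaks above the 50th percentile of their list, of 31876 regions 4511 were KOSC-2-specific, 955 of them at both doses and 725 in no 0 Gy list, and 87 HSC-3-specific regions were in no 0 Gy list. With 1 list of similar length per line and dose, which was chosen after seeing the data, 13350 and 13579 were counted (ratio 0.983, which the lengths of the 2 lists fix and which is no change of direction between the lines), of which 5576 and 4630 were line-specific at both doses and 4556 and 5756 in no 0 Gy list.

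Leaving out each library in turn gave 8847 to 18804 KOSC-2-specific and 1289 to 8687 HSC-3-specific regions, at ratios of 1.02 to 14.3. Dropping KOSC-2 8 Gy replicate 2 gave the highest ratio, and dropping HSC-3 8 Gy replicate 1 the lowest. Dropping HSC-3 8 Gy replicate 2 gave 18804 and 3137 regions, and dropping KOSC-2 8 Gy replicate 1 gave 12864 and 2370. Regions specific at both doses numbered 1716 to 4185 in KOSC-2 (2635 with HSC-3 0 Gy replicate 1 dropped) and 243 to 589 in HSC-3 (466 with HSC-3 0 Gy replicate 2 dropped). Regions in no 0 Gy list numbered 1528 to 7225 and 146 to 4029. Fewer lists to meet in one line make its class larger by construction. They also make the class of the other line larger, because a region must be absent from fewer lists.

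A −log10 q of at least 5, 50% of a region covered, merging within 500 bp and including chromosome X kept every count within 1.5 times. The differences in called share were 40.1 and -41.1 percentage points with lists of equal length, and 25.6 to 39.6 and -33.6 to -13.0 with 1 irradiated library left out, the -13.0 with an exact permutation p of 0.667. Differences with the replicate number as a block (replicate block) had the same sizes. Their exact permutation p was 1 for the number of peaks and 0.5, the smallest 4 assignments allow, for width, length covered and both called shares. The labels do not say that a number marks a shared batch. Gene lists and motifs were not run because no hg19 annotation or genome was used here. Weak peaks near the smallest pileup called limit what a missing call can show.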

Other observations

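Windows of 10 Mb were chosen here after their values were seen. Among windows with at least 200 regions, KOSC-2-specific regions at 8 Gy were most frequent on chromosome 11 from 90 to 100 Mb (31.3% of regions, and 14.9% KOSC-2-specific at 0 Gy), which holds the longest run of KOSC-2-specific regions. Next came chromosome 18 from 40 to 50 Mb (31.1%, and 13.8% at 0 Gy) and chromosome 6 from 40 to 50 Mb (30.4%, and 18.4% at 0 Gy). In a smaller window, chromosome 19 from 20 to 30 Mb, the share was higher. There 38 of 61 regions (62.3%) were KOSC-2-specific and 0 HSC-3-specific at 8 Gy, and 22 of 60 (36.7%) were KOSC-2-specific and 0 HSC-3-specific at 0 Gy. HSC-3-specific regions were most frequent on chromosome 2 from 0 to 10 Mb (8.57%, and 7.73% at 0 Gy), which holds the HSC-3-specific run of 5 regions. The next windows were chromosome 5 from 0 to 10 Mb (7.89%, and 4.15% at 0 Gy) and chromosome 5 from 150 to 160 Mb (6.79%, and 4.41% at 0 Gy).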
